A study of Mus musculus with 25 samples.

Results

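Pituitaries of sh*Rb* mice after 12 weeks of doxycycline (12w+dox, 4 mice) were compared with those after 6 weeks (6w+dox, 3 mice), across all 15315 genes of the long-term RNA-seq table, so that these 7 of the 25 samples of the series form the comparison. Every mouse carried an rtTA transactivator driven by the *Rosa26* promoter, which is active in most tissues, and at *Col1a1* a Tet-ON, GFP-linked miR-E hairpin against *Rb* (shRb5, from a single embryonic stem cell clone). Doxycycline (dox), given in the drinking water, switches the hairpin on. The 6w+dox mice were all female, and the 12w+dox group held 2 females (replicates 1 and 2) and 2 males (replicates 3 and 4). Both groups carried the hairpin and received dox, and a pituitary without dox was not analysed here. The 5 mice of 12w-res (6 weeks with and then 6 weeks without dox, 2 males and 3 females) entered the main fit only through the shared estimate of the spread. With sex as a covariate they also entered the estimate of the sex difference. Their values are given beside some results.

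RB, the product of *Rb1*, holds E2F transcription factors in check and so restrains entry into the cell cycle. In mice, loss of RB is known for tumors of the intermediate lobe of the pituitary, whose melanotrophs make POMC and, from it, melanocyte-stimulating hormone. A whole pituitary also holds the anterior lobe, with the cells that make growth hormone, prolactin, thyrotropin, gonadotropins and corticotropin, and the neural lobe, with the axon endings of vasopressin and oxytocin neurons among pituicytes.

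The hairpin target is shown first because the knock-down defines both groups. The 21-base site of shRb5 lies in the *Rb1* mRNA within coding exon 22 of 27, at chr14:73206076-73206096 on the minus strand (GRCm38, GENCODE vM21), and is printed in the sense of the mRNA with the matched bases in capitals.
shRb5 target: GAGGAGTTTGATTCCATTATA
*Rb1* stood at 1.86, 2.54 and 5.09 FPM in the 6w+dox mice and at 3.45, 2.42, 2.93 and 4.05 FPM in the 12w+dox mice, given here and throughout in the order of the replicate numbers. FPM are reads per gene scaled by the size factors of the authors. The groups overlapped, and the log2 fold change of 0.10 ± 0.26 (SE, adjusted p = 0.816) was not called. The 12w-res mice, off dox, ranged from 16.1 to 20.3 FPM. *Gfp* was not analysed here.

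The 6w+dox libraries held 19066053 to 22384365 recovered reads on genes, and the 12w+dox libraries 22695279 to 28968476. *Xist*, the RNA of the inactive X chromosome, separated the labelled sexes, with 85.2 to 2330.4 FPM in the 5 females and 0.123 to 0.195 FPM in the 2 males. Replicates of a group differed by more than counting error in every pair, and the labels give each replicate 1 sample without stating that each came from its own mouse, so p-values measure the spread between these samples. Replicate 3 of 6w+dox and replicate 1 of 12w+dox stood apart. On the first principal component of the 7 mice (39.9% of the variance) 6w+dox replicate 3 lay at -0.91, between the other 6w+dox mice (-124.6 and -92.0) and the 12w+dox mice (40.7 to 78.9). 12w+dox replicate 1 shared the 6w+dox levels of *Eno1b*, an enolase gene (22.1 FPM, where the 6w+dox mice had 15.8 to 27.3 and the other 12w+dox mice 0.233 to 0.431), and of *Rab6b*, a Golgi GTPase gene (2.97 FPM, where the 6w+dox mice had 1.03 to 2.97 and the other 12w+dox mice 44.9 to 64.6). All 5 12w-res mice were on the side of the other 12w+dox mice in both genes. Results are given without these mice where a call or a value rests on them, and no batch or collection date is given in the sources used here.

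From 6 to 12 weeks, 483 genes rose (3.15% of the 15315 tested) and 619 fell (4.04%), which is 7.2% in all. A call required an absolute log2 fold change over 1 and an adjusted p below 0.05 in limma on log2(FPM + 0.5), and folds on this scale understate the changes of low genes. The changes were mostly moderate, with a median of 1.3 for genes that rose and 1.31 for genes that fell (log2), and 38 and 78 genes changed over 4-fold. Of the called genes, 434 higher and 536 lower had groups without overlap, where 25.2% of all genes tested had such groups (12.9% higher and 12.4% lower). In limma, 5585 of the 15315 genes had an unadjusted p under 0.05, in either direction. Counts of list members at that threshold stand beside this number. The median gene had a log2 fold change of -0.0063. Scaling by total reads in place of size factors moved that median by 0.30, to 0.29, and changes are given relative to the size-factor scale. Calls of named genes that were lost with totals as the scale, or in a fit of only the 7 mice, are listed with the processing below. Females alone (3 against 2) gave 322 higher and 367 lower. Without 6w+dox replicate 3 the counts were 805 and 874, and without 12w+dox replicate 1 they were 528 and 779.

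**Figure D1:**
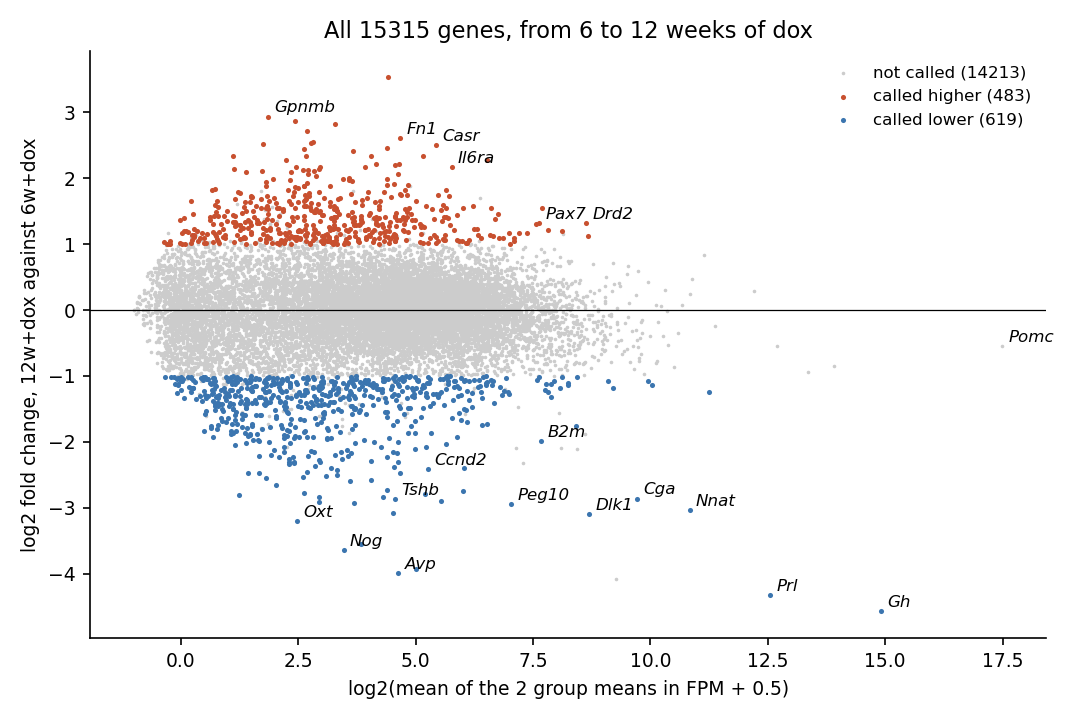
Change between 6w+dox and 12w+dox (vertical axis, log2 fold change, positive where 12w+dox is higher) against mean level (horizontal axis, log2 of FPM + 0.5) for all 15315 genes, 483 called higher (red) and 619 called lower (blue). *Gh* and *Prl* have the lowest values of called genes (-4.57 and -4.32), and *Pomc*, at the right edge, lies at -0.55.

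Levels also moved with transcript length. Genes whose longest annotated transcript is at most 1000 bases had a median log2 fold change of -0.50 (702 genes, 4 called higher and 76 lower), and those over 8000 bases a median of 0.22 (869 genes, 60 higher and 33 lower). By mouse, the short genes lay above their 7-mouse mean by a median of 0.49 and 0.41 on the log2 scale in 6w+dox replicates 1 and 2. In 6w+dox replicate 3 their median deviation was -0.07, within the range of the 12w+dox mice (-0.42 to -0.0049). The part of length in any single result was not tested, but each call named below was also read after the trend of every mouse on length had been removed, an alternative added after seeing the data, and a call lost there is given beside the gene.

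**Figure D2:**
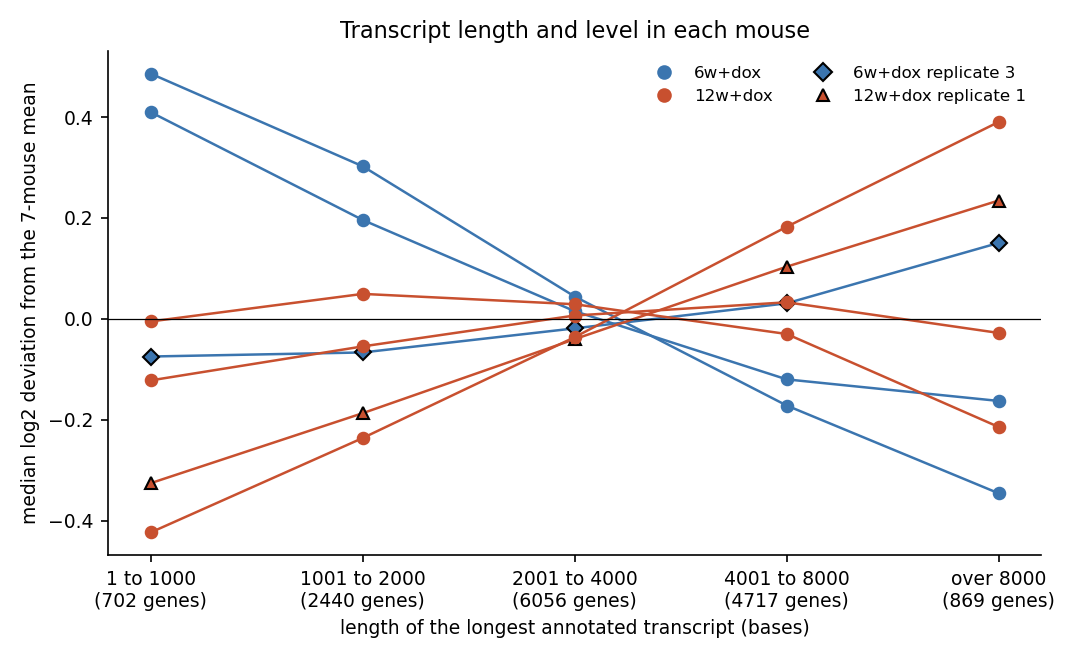
Median deviation of genes from their 7-mouse mean on the log2(FPM + 0.5) scale (vertical axis) by length of the longest annotated transcript in bases (horizontal axis), with 1 line per mouse. 6w+dox replicates 1 and 2 fall from 0.49 and 0.41 at the shortest genes to -0.35 and -0.16 at the longest, while 6w+dox replicate 3 runs with the 12w+dox mice.

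Genes of the anterior lobe lines that depend on the factor Pit-1 included the largest decreases of all called genes in limma, those of *Gh* and *Prl*. Of 9 listed somatotroph, lactotroph and thyrotroph genes tested, 6 fell and 0 rose, where 4.04% of all genes fell. Their median log2 fold change was -2.79. Their summed level was 57031 to 92218 FPM at 6w+dox and 1267 to 12659 FPM at 12w+dox. In these bulk samples, fewer cells of a type and less RNA per cell cannot be told apart. *Gh*, which encodes growth hormone, measured 45882, 80113 and 50015 FPM at 6w+dox and 7478, 930.3, 2042 and 2317 FPM at 12w+dox. The groups did not overlap, and the highest 12w+dox mouse was replicate 1 (log2 fold change -4.57 ± 0.67 SE, adjusted p = 0.000694). *Prl*, the prolactin gene, read 10890.3, 11704 and 9172 FPM and 4940.4, 219, 214 and 332 FPM, a log2 fold change of -4.32 ± 0.81 (SE, adjusted p = 0.00295). Replicate 1 of 12w+dox again stood far above the other 3 mice of its group, and leaving it out gave *Prl* a log2 fold change of -5.40 (adjusted p = 2.09e-06). On recovered reads the decrease of *Prl* was smaller, at -2.90 (adjusted p = 0.0311) in edgeR and -2.89 in DESeq2, which gave no adjusted p. *Pou1f1*, which encodes Pit-1, read 23.9, 79.6 and 122 FPM at 6w+dox and 53.9, 1.28, 6.13 and 7.15 FPM at 12w+dox (log2 fold change -2.89 ± 0.85 SE, adjusted p = 0.0265), with 12w+dox replicate 1 inside the 6w+dox range. The call of *Pou1f1* was lost without 12w+dox replicate 2 (adjusted p = 0.0639), 12w+dox replicate 3 (adjusted p = 0.0545), 12w+dox replicate 4 (adjusted p = 0.0576), 6w+dox replicate 2 (adjusted p = 0.0993) or 6w+dox replicate 3 (adjusted p = 0.0646), in edgeR (adjusted p = 0.091), in DESeq2 (adjusted p = 0.104) and in females alone (adjusted p = 0.14). Without 12w+dox replicate 1 the log2 fold change of *Pou1f1* was -3.79 (adjusted p = 0.00156) and without 6w+dox replicate 1 it was -3.57 (adjusted p = 0.0222).

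A receptor gene and a hormone gene of the same lines also fell. *Ghrhr*, the receptor through which the hypothalamus drives growth hormone, measured 21.2, 57.5 and 109.8 FPM and 21.8, 2.36, 7.08 and 6.0 FPM (log2 fold change -2.79 ± 0.58 SE, adjusted p = 0.00503), and 12w+dox replicate 1 lay just above the lowest 6w+dox mouse. Without 6w+dox replicate 1 its log2 fold change was -3.42 (adjusted p = 0.00273). *Tshb*, the thyrotropin beta subunit, measured 12.9, 65.6 and 43.5 FPM and 10.5, 0.904, 7.42 and 3.24 FPM (log2 fold change -2.87 ± 0.66 SE, adjusted p = 0.00833). The call of *Tshb* was lost without 6w+dox replicate 2 (adjusted p = 0.0531). Without 6w+dox replicate 1 the log2 fold change of *Tshb* was -3.54 (adjusted p = 0.00487).

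The promoters of *Prl* and *Tshb* are shown because both genes fell with *Pou1f1*, whose product binds letters of the form TATNCAT. The 250 bases before an annotated start of each gene (RefSeq, GRCm38.p6) were searched for TATNCAT on both strands, with matches in capitals. Those of *Prl* lie at chr13:27057320-27057569 on the plus strand and those of *Tshb* at chr3:102782715-102782964 on the minus strand. The *Tshb* window lies inside the span of the gene (chr3:102777398-102789082), so the bases before its outermost start were not searched.
*Prl* promoter: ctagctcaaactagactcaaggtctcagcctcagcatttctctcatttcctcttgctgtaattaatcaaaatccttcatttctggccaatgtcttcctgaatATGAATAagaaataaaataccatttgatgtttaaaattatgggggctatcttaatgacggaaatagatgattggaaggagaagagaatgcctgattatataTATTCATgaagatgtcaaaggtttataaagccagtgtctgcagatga
*Tshb* promoter: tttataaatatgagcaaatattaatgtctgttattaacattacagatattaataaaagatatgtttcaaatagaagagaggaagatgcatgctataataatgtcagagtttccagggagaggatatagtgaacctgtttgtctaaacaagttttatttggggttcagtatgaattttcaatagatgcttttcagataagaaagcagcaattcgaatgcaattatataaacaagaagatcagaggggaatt
The *Prl* window held 2 matches, on the minus strand with its first base at -148 from the start and on the plus strand at -47, and the *Tshb* window held 0. Such letters stood in 7.92% of all 32851 promoter windows of the reference. Among genes of the table they stood in a window of 17 of 448 genes that fell (3.80%), 17 of 324 that rose (5.25%) and 538 of 11536 in all (4.66%). A match is a description of these letters only.

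Gonadotroph genes were lower in most mice and differed with sex. Of 9 tested, 2 fell and 0 rose, with a median of -1.85, and their summed level was 2066 to 2493 FPM at 6w+dox and 81.5 to 1316 FPM at 12w+dox. Of all genes, 4.04% fell. *Cga*, the alpha subunit shared by the gonadotropins and thyrotropin, measured 1365, 1511 and 1359.5 FPM and 439.5, 41.2, 379 and 203 FPM (log2 fold change -2.86 ± 0.76 SE, adjusted p = 0.0166). The call of *Cga* was lost without 6w+dox replicate 2 (adjusted p = 0.0623). Without 12w+dox replicate 2, the lowest mouse, the log2 fold change of *Cga* was -2.12 (adjusted p = 0.0331). *Nr0b1*, which encodes a nuclear receptor of gonadotrophs, had a log2 fold change of -1.92 ± 0.54 (SE, adjusted p = 0.0223). The call of *Nr0b1* was lost without 12w+dox replicate 2 (adjusted p = 0.0519), 6w+dox replicate 1 (adjusted p = 0.0503), 6w+dox replicate 2 (adjusted p = 0.0512) or 6w+dox replicate 3 (adjusted p = 0.0508) and in edgeR (adjusted p = 0.0524). *Lhb*, the luteinizing hormone subunit, read 353, 473 and 340.4 FPM in the 6w+dox females, 87.6 and 11.9 FPM in the 12w+dox females, and 364 and 169 FPM in the 12w+dox males. The follicle-stimulating hormone subunit *Fshb* was split in the same manner, with 121, 152 and 215 FPM at 6w+dox, 20.8 and 10.2 FPM in the 12w+dox females and 332 and 140.4 FPM in the males. Neither was called (adjusted p = 0.162 and 0.487), but with sex as a covariate the log2 fold changes were -3.59 (adjusted p = 0.00227) for *Lhb* and -3.72 (adjusted p = 0.0013) for *Fshb*. That fit also drew the sex difference from the 12w-res mice. Their males had 1040 and 327 FPM of *Lhb*, and their females 64.4 to 71.9 FPM. For *Fshb* these males had 811 and 253 FPM and the females 6.37 to 20.4 FPM.

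Genes of the melanotroph and corticotroph lines went in both directions. Of 13 tested, 2 rose and 2 fell, with a median of -0.42, where 3.15% of all genes rose and 4.04% fell. *Pax7*, the factor that sets melanotroph identity, measured 106, 117 and 109 FPM at 6w+dox and 241, 278, 224 and 393 FPM at 12w+dox (log2 fold change 1.32 ± 0.16 SE, adjusted p = 0.000243). *Drd2*, the dopamine receptor that restrains melanotroph secretion, measured 252, 202 and 222 FPM and 410.2, 685, 563 and 624 FPM (log2 fold change 1.32 ± 0.18 SE, adjusted p = 0.00048). Every 12w+dox mouse lay above every 6w+dox mouse in both genes. *Crhr1*, the receptor for corticotropin-releasing hormone, read 11.3, 21.4 and 24.3 FPM and 6.84, 2.33, 5.7 and 5.7 FPM (log2 fold change -1.80 ± 0.39 SE, adjusted p = 0.00599). *Neurod1*, which encodes a factor of corticotrophs, read 5.88, 8.28 and 12.7 FPM and 4.57, 0.816, 2.09 and 1.82 FPM (log2 fold change -1.84 ± 0.49 SE, adjusted p = 0.0168). The call of *Neurod1* was lost without 6w+dox replicate 2 (adjusted p = 0.0573) and in females alone (adjusted p = 0.0934). *Pomc* itself was the most abundant transcript, with 376655, 199141 and 107477 FPM at 6w+dox and 152371, 194592, 127989 and 93231 FPM at 12w+dox, and took 13.6% to 32.2% and 12.9% to 23% of the reads. Its groups overlapped and its log2 fold change was -0.55 ± 3.50 (SE, adjusted p = 0.928) in limma, -0.68 (adjusted p = 0.213) in edgeR, neither called. The limma SE of *Pomc* comes mostly from the trended prior variance at the highest level and is far wider than the spread of its 7 values. The limma p-value of *Pomc* therefore does not measure the spread between these mice.

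**Figure D3:**
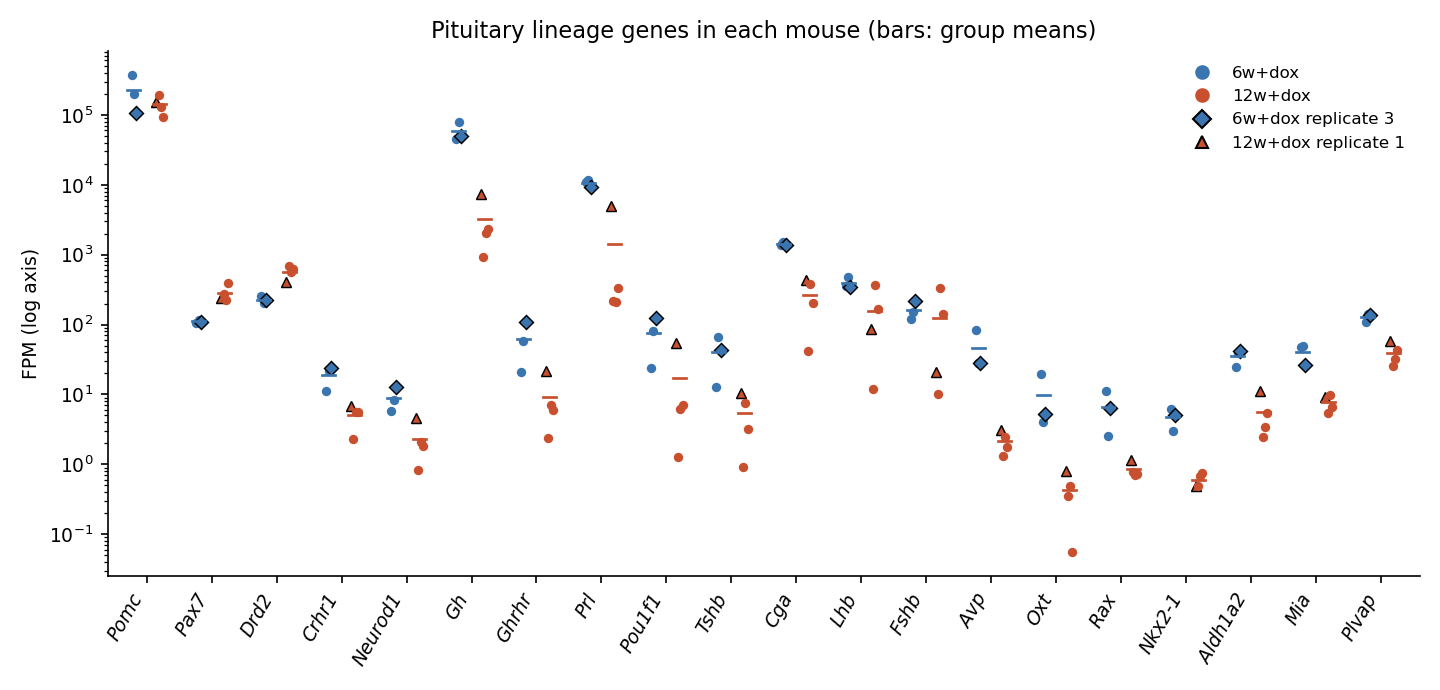
FPM of 20 pituitary lineage genes in each mouse (log axis), 6w+dox in blue and 12w+dox in red, with bars at the group means, 6w+dox replicate 3 as a diamond and 12w+dox replicate 1 as a triangle. *Gh* and *Prl* lie at 45882 and 9172 FPM or more at 6w+dox and at 7478 and 4940.4 FPM or less at 12w+dox, and the triangle is the highest red point in both.

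Stem and folliculostellate genes, which mark the progenitors and supporting cells of the gland, also fell. Of 11 tested, 7 fell (*Aldh1a2*, *Mia*, *Rbpms*, *Cyp2f2*, *Gja1*, *Cpxm2* and *Sox9*) and 0 rose, where 4.04% of all genes fell. Their median was -1.14, with a summed level of 323 to 425 FPM at 6w+dox and 159.6 to 444 FPM at 12w+dox. *Aldh1a2*, a retinoic acid synthesis enzyme, measured 25, 39.6 and 41.9 FPM and 11.1, 2.48, 3.39 and 5.39 FPM (log2 fold change -2.73 ± 0.40 SE, adjusted p = 0.000702). *Mia* measured 47.2, 48.6 and 26.7 FPM and 9.21, 5.51, 9.92 and 6.62 FPM (log2 fold change -2.30 ± 0.35 SE, adjusted p = 0.000873). The groups did not overlap in either gene. The call of *Cyp2f2* was lost in females alone (adjusted p = 0.0704).

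In the neural lobe list 8 of 10 genes fell and 0 rose, where 4.04% of all genes fell. Their median was -1.87, with summed levels of 88.9 to 204 FPM and 18.4 to 47.7 FPM. *Avp*, the vasopressin gene, measured 83.1, 28.3 and 28 FPM at 6w+dox and 3.11, 1.31, 2.46 and 1.76 FPM at 12w+dox (log2 fold change -3.99 ± 0.39 SE, adjusted p = 0.000136). *Oxt*, the oxytocin gene, measured 19.8, 4.05 and 5.26 FPM and 0.803, 0.35, 0.493 and 0.0559 FPM, the last from 2 reads (log2 fold change -3.20 ± 0.49 SE, adjusted p = 0.000911). Without 6w+dox replicate 1, the highest mouse, *Oxt* gave -2.53 (adjusted p = 0.00299), and with the length trend removed -2.60 (adjusted p = 0.00227). *Rax* and *Nkx2-1*, transcription factors of pituicytes and of the ventral brain they come from, fell (log2 fold changes -2.23 and -2.21). At 6w+dox they lay at 2.54 to 11.2 and 2.98 to 6.23 FPM, and at 12w+dox at 0.708 to 1.15 and 0.489 to 0.754 FPM. *Col13a1* and *Rem2*, which were in no list, were among the decreases with the smallest p. The first, a transmembrane collagen gene, read 43.4, 20.04 and 39.9 FPM and 5.02, 3.64, 3.45 and 4.69 FPM (log2 fold change -2.83 ± 0.24 SE, adjusted p = 7.12e-05), and the second, a small GTPase gene, 82.5, 70.2 and 59.8 FPM and 25, 26.4, 26.7 and 23.9 FPM (log2 fold change -1.45 ± 0.13 SE, adjusted p = 9.88e-05).

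Some vessel genes fell. Of 12 endothelial genes, 4 fell and 0 rose, where 4.04% of all genes fell (median -0.63, summed level 225 to 287 FPM at 6w+dox and 86.4 to 164 FPM at 12w+dox), and of 10 pericyte and smooth muscle genes 2 fell (*Des* and *Myh11*, median -0.56). *Plvap*, a protein of fenestrated endothelium, read 108, 143 and 135 FPM and 58.3, 25.3, 31.9 and 43.3 FPM (log2 fold change -1.74 ± 0.26 SE, adjusted p = 0.000784). *Emcn*, an endothelial sialomucin, read 17.2, 20.4 and 15.6 FPM and 9.42, 5.39, 5.02 and 8.68 FPM (log2 fold change -1.30 ± 0.20 SE, adjusted p = 0.00104). The angiopoietin receptor gene *Tek* (-1.04) and its relative *Tie1* (-1.07) were near the minimum change. The call of *Tek* was lost without 12w+dox replicate 2 (adjusted p = 0.0637), 12w+dox replicate 3 (adjusted p = 0.0542), 6w+dox replicate 2 (adjusted p = 0.0697) or 6w+dox replicate 3 (log2 fold change -0.94) and in females alone (adjusted p = 0.0813). The call of *Tie1* was lost without 12w+dox replicate 2 (log2 fold change -0.92) or 12w+dox replicate 3 (log2 fold change -0.88). *Angpt2*, a ligand of the *Tek* receptor, rose, from 18.3, 18 and 7.78 FPM to 28.4, 53.3, 50.7 and 38 FPM (log2 fold change 1.56 ± 0.28 SE, adjusted p = 0.00228), while *Vegfc*, a lymphatic growth factor, fell by 1.32 on the log2 scale. The call of *Vegfc* was lost without 6w+dox replicate 2 (adjusted p = 0.0549) and in females alone (adjusted p = 0.129).

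Fibroblast and matrix genes split. Of 19 tested, 5 fell (*Dcn*, *Lum*, *Pdgfra*, *Loxl1* and *Fbln2*) and 1, *Fn1*, rose, with a median of 0.08 that turned negative in females alone (-0.02) and without 12w+dox replicate 1 (-0.18), 12w+dox replicate 4 (-0.15) or 6w+dox replicate 3 (-0.08). Of all genes, 4.04% fell and 3.15% rose. *Fn1*, which encodes fibronectin, read 5.18, 6.73 and 5.67 FPM at 6w+dox and 51.2, 28.8, 17.9 and 78.9 FPM at 12w+dox (log2 fold change 2.61 ± 0.43 SE, adjusted p = 0.00139). *Dcn*, which encodes the collagen-binding proteoglycan decorin, read 68.9, 41.9 and 42.1 FPM and 23.1, 9.3, 11.8 and 24.2 FPM (log2 fold change -1.62 ± 0.34 SE, adjusted p = 0.00529). Of 14 macrophage genes 0 were called by limma, edgeR or DESeq2, with 2 higher and 1 lower at an unadjusted p under 0.05 in limma. Their median of -0.08 turned positive in females alone (0.10), with sex as a covariate (0.04) and with the length trend removed (0.10), and their summed levels were 146 to 213 and 152 to 209 FPM. Of these genes *Adgre1*, a macrophage receptor, had the largest change, at 1.34, 1.83 and 2.24 FPM and 4.64, 3.5, 2.4 and 3.27 FPM (log2 fold change 0.77 ± 0.25 SE, adjusted p = 0.0418). Among 5 lymphocyte genes the T cell receptor component *Cd3g* fell, at 1.28, 0.891 and 0.414 FPM and 0.0349, 0.233, 0.216 and 0.14 FPM (log2 fold change -1.01 ± 0.28 SE, adjusted p = 0.021). The call of *Cd3g* was lost without 12w+dox replicate 1 (log2 fold change -0.92), 6w+dox replicate 1 (adjusted p = 0.0947) or 6w+dox replicate 2 (adjusted p = 0.0764), in females alone (adjusted p = 0.0854) and with the length trend removed (log2 fold change -0.93). *Alas2*, the only red blood cell gene tested, gave -0.37 ± 0.38 (SE, adjusted p = 0.508).

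The 12 largest increases with groups that did not overlap were led by *Gpnmb*, which encodes a lysosomal and melanosomal glycoprotein. It was counted with 5, 0 and 5 reads in the 6w+dox mice and 52, 224, 447 and 79 in the 12w+dox mice, or 0 to 0.291 and 1.81 to 13.8 FPM (log2 fold change 2.94 ± 0.77 SE, adjusted p = 0.0162), a value that depends on the pseudocount at so few reads. The call of *Gpnmb* was lost without 6w+dox replicate 2 (adjusted p = 0.0698) and in females alone (adjusted p = 0.0826). *Vgll3*, which encodes a cofactor of TEAD transcription factors, read 0.233, 0.713 and 0.993 FPM and 5.58, 18.2, 9.64 and 3.1 FPM (log2 fold change 2.87 ± 0.48 SE, adjusted p = 0.00154). *Insrr*, an insulin receptor-related kinase that senses alkaline pH, read 0.757, 1.65 and 2.28 FPM and 3.0, 16.9, 23.7 and 24.4 FPM (log2 fold change 2.82 ± 0.55 SE, adjusted p = 0.0037). The lowest 12w+dox mouse in *Insrr* was replicate 1, without which the log2 fold change was 3.48 (adjusted p = 9.17e-05). The call of *Insrr* was lost in females alone (adjusted p = 0.0525).

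*Arg1*, which encodes the arginine-cleaving enzyme of the urea cycle, measured 1.8, 0.935 and 0.828 FPM at 6w+dox and 11.7, 14.9, 6.56 and 9.77 FPM at 12w+dox (log2 fold change 2.72 ± 0.35 SE, adjusted p = 0.000338). *Casr*, the calcium-sensing receptor gene, measured 7.22, 13.7 and 17.8 FPM and 58.3, 87.1, 59 and 85.4 FPM (log2 fold change 2.51 ± 0.30 SE, adjusted p = 0.000211). Both had every 12w+dox mouse above every 6w+dox mouse, which the naming rule required of this set. *Mgat5*, a glycosyltransferase that branches N-glycans, rose from 3.61, 5.3 and 9.44 FPM to 23.8, 31.3, 31.4 and 53.5 FPM (2.46), and *Itgb8*, an integrin subunit that activates latent TGF-beta, from 0.582, 1.43 and 2.44 to 8.3, 15.2, 7.64 and 8.27 FPM (2.45). *Slc36a4*, an amino acid transporter gene, rose by 2.42, *Rtp2*, which encodes a chaperone of odorant receptors, by 2.55, and *Tmem196* and *BC049352* by 2.53 and 2.52 (log2). The adjusted p of these 12 genes ran from 0.000200 to 0.0162.

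The increases with the smallest p ran from 1.17 to 2.33 on the log2 scale. *Nr1d2*, a repressor of the circadian clock, measured 92.6, 99.1 and 113 FPM and 209, 229, 260.3 and 217 FPM (log2 fold change 1.17 ± 0.11 SE, adjusted p = 0.000136). *Il6ra*, the interleukin 6 receptor, measured 16.3, 19.9 and 20.4 FPM and 66.7, 83.9, 78.3 and 127 FPM (log2 fold change 2.17 ± 0.21 SE, adjusted p = 0.000136). *Mme*, which encodes the peptide-degrading enzyme neprilysin, measured 46.8, 35.6 and 28.9 FPM and 91.4, 125, 114 and 111 FPM (log2 fold change 1.58 ± 0.16 SE, adjusted p = 0.000136). In all 3 the mice of each group lay close together and the groups were far apart. *Hdac11*, a histone deacetylase gene, rose by 1.17, *Fut9*, a fucosyltransferase gene, by 1.37, and *Lmbrd2*, a membrane protein gene, by 2.33 (log2, adjusted p = 0.000136 to 0.000175).

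**Figure D4:**
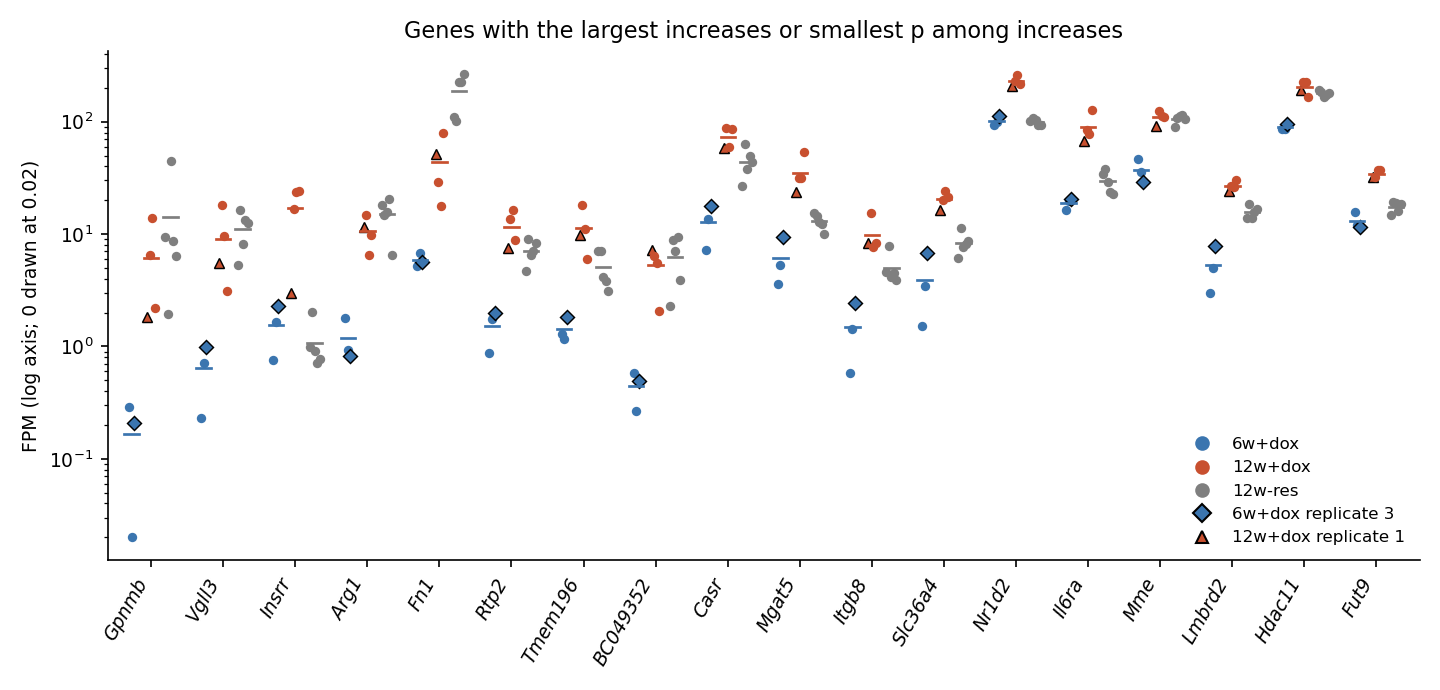
FPM (log axis, 0 drawn at 0.02) of the 12 genes with the largest increases and the 6 with the smallest p among increases, in each mouse of 6w+dox (blue), 12w+dox (red) and 12w-res (grey), with bars at the group means. *Insrr* is at 0.708 to 2.01 FPM in 12w-res, near the 6w+dox range, while *Fn1* in 12w-res, at 101 to 266 FPM, lies above every 12w+dox mouse.

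Among the largest decreases were genes expressed from 1 parental allele. Of 14 imprinted growth genes tested, 5 fell (*Dlk1*, *Nnat*, *Peg10*, *Cdkn1c* and *Grb10*) and 2 rose (*Igf2* and *H19*), with a median of -0.24 where all genes had -0.0063. Of all genes, 4.04% fell and 3.15% rose. *Peg10*, a gene derived from a retrotransposon, read 127, 271 and 298 FPM at 6w+dox and 33.4, 23.6, 25.7 and 29.96 FPM at 12w+dox (log2 fold change -2.94 ± 0.27 SE, adjusted p = 0.000102). *Nnat*, which encodes the proteolipid neuronatin, read 1959, 4687 and 2848 FPM and 1094, 116, 385 and 351 FPM (log2 fold change -3.03 ± 0.67 SE, adjusted p = 0.00686). *Dlk1*, a Notch-like ligand of somatotrophs and stem cells, read 386, 838 and 799 FPM and 485, 23, 56.2 and 47.7 FPM (log2 fold change -3.09 ± 0.75 SE, adjusted p = 0.0113). Its 12w+dox replicate 1 lay inside the 6w+dox range, and without that mouse the log2 fold change was -3.99 (adjusted p = 0.000169). The call of *Dlk1* was lost without 6w+dox replicate 2 (adjusted p = 0.0542), in edgeR (adjusted p = 0.0733) and in females alone (adjusted p = 0.104). In edgeR the log2 fold change of *Dlk1* was -2.15 and in DESeq2, which gave no adjusted p, -2.14. *Igf2*, an insulin-like growth factor, read 9.72, 15.2 and 5.42 FPM and 18.9, 19.99, 29.8 and 36.4 FPM (log2 fold change 1.39 ± 0.28 SE, adjusted p = 0.00426), and its neighbour *H19*, a non-coding RNA, 0.349, 1.69 and 0.704 FPM and 3.28, 2.56, 3.82 and 5.05 FPM (log2 fold change 1.64 ± 0.35 SE, adjusted p = 0.00576). Every 12w+dox mouse lay above every 6w+dox mouse in both. The call of *Igf2* was lost in females alone (adjusted p = 0.0542). The call of *H19* was lost in females alone (adjusted p = 0.0637).

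*Nog*, which encodes the BMP antagonist noggin, measured 8.91, 25.1 and 25.9 FPM at 6w+dox and 2.2, 0.291, 0.585 and 1.56 FPM at 12w+dox (log2 fold change -3.65 ± 0.46 SE, adjusted p = 0.000306). *Asb4*, which encodes a ubiquitin ligase adaptor, measured 40.2, 63.3 and 72.5 FPM and 12.3, 0.874, 1.91 and 4.36 FPM (log2 fold change -3.92 ± 0.58 SE, adjusted p = 0.000766), with 12w+dox replicate 1 highest in its group, and -4.51 (adjusted p = 0.000123) without that mouse. *Hepacam2* and *Fam181b* fell by 3.07 and 2.91 on the log2 scale (adjusted p = 0.00741 and 0.000207). *Cckbr*, a gastrin and cholecystokinin receptor, was counted with 43, 106 and 90 reads at 6w+dox and with 2 or 3 reads in every 12w+dox mouse, so its level there was at the floor of 3 reads and no fold is given. *Chchd7*, a nuclear gene that encodes a mitochondrial protein, read 50.1, 39.95 and 34.2 FPM and 16.9, 15.3, 13.4 and 12.3 FPM (log2 fold change -1.48 ± 0.15 SE, adjusted p = 0.000175).

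Few proliferation genes changed between 6 and 12 weeks. Of all 15315 genes, 7.2% were called and 5585 were at an unadjusted limma p under 0.05. Of 96 genes of the S and G2/M phases tested, 1 rose and 0 fell (8 and 6 at an unadjusted p under 0.05), with a median log2 fold change of 0.02 that turned negative in females alone (-0.05), with sex as a covariate (-0.01) and without 12w+dox replicate 2 (-0.03), 12w+dox replicate 3 (-0.0050) or 6w+dox replicate 3 (-0.10). The gene was *Ccne2*, cyclin E2, an E2F target that starts S phase, at 2.39, 3.79 and 6.58 FPM and 6.66, 8.6, 15.6 and 9.16 FPM (log2 fold change 1.17 ± 0.37 SE, adjusted p = 0.0358). The call of *Ccne2* was lost without 12w+dox replicate 2 (adjusted p = 0.0587), 12w+dox replicate 3 (adjusted p = 0.0886), 12w+dox replicate 4 (adjusted p = 0.0664), 6w+dox replicate 1 (adjusted p = 0.155) or 6w+dox replicate 2 (adjusted p = 0.108), in edgeR (adjusted p = 0.0507), with sex as a covariate (adjusted p = 0.0786) and in females alone (adjusted p = 0.221). The list of RB, E2F and G1 regulators held 3 genes that fell of 29, beside *Ccne2*, with a median of 0.10 that was -0.0077 in females alone. *Ccnd2*, cyclin D2, read 39, 69.4 and 79.8 FPM and 23.1, 6.32, 6.01 and 15.7 FPM (log2 fold change -2.41 ± 0.42 SE, adjusted p = 0.00199), and *Ccnd1*, cyclin D1, 39, 43.1 and 46.2 FPM and 21.2, 10.8, 13.1 and 16.2 FPM (log2 fold change -1.49 ± 0.20 SE, adjusted p = 0.000444). The D cyclins activate the kinases that inactivate RB, and every 12w+dox mouse lay below every 6w+dox mouse in both. *Cdkn1c*, the CDK inhibitor p57, read 52.9, 53.7 and 35.2 FPM and 12.4, 20.9, 30.6 and 17.2 FPM (log2 fold change -1.25 ± 0.29 SE, adjusted p = 0.0094). The call of *Cdkn1c* was lost without 6w+dox replicate 2 (adjusted p = 0.0503). Of 26 p53 targets 1 rose, *Eda2r*, a death receptor of the TNF family (3.32, 3.07 and 2.73 FPM and 5.41, 8.83, 9.09 and 5.67 FPM, log2 fold change 1.10 ± 0.25 SE, adjusted p = 0.00736), and 0 fell (median 0.09). The call of *Eda2r* was lost without 12w+dox replicate 2 (log2 fold change just under 1 in size) or 12w+dox replicate 3 (log2 fold change 0.98), with sex as a covariate (log2 fold change 0.96) and with the length trend removed (log2 fold change 0.97).

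Most subunit genes of the respiratory chain and the ribosome were lower at 12w+dox than in 6w+dox replicates 1 and 2, with 6w+dox replicate 3 near the 12w+dox level. Of 76 respiratory chain and ATP synthase genes, 14 fell and 0 rose (median -0.74), and of 73 cytosolic ribosomal protein genes 8 fell and 0 rose (median -0.67). Of all genes, 4.04% fell. Genes of like transcript length had medians of -0.19 and -0.20. *Ndufa5*, a complex I subunit, read 84.7, 73.4 and 26 FPM and 19.1, 21.6, 24.3 and 16.6 FPM (log2 fold change -1.41 ± 0.30 SE, adjusted p = 0.00623), and *Cox6c*, a cytochrome oxidase subunit, 143, 142 and 70.7 FPM and 44.9, 48.9, 59.8 and 39.1 FPM (log2 fold change -1.24 ± 0.22 SE, adjusted p = 0.00219). *Rpl38*, of the large ribosomal subunit, read 153, 232 and 69.9 FPM and 49.97, 59.3, 51.4 and 43.6 FPM (log2 fold change -1.41 ± 0.33 SE, adjusted p = 0.00921). The call of *Rpl38* was lost without 6w+dox replicate 2 (adjusted p = 0.0565), in females alone (adjusted p = 0.0715) and with the length trend removed (log2 fold change -0.79). In each of these the third 6w+dox mouse was nearer to the 12w+dox mice than to the others of its group. With the length trend removed, 3 respiratory and 1 ribosomal gene were still called, with medians of -0.36 and -0.27. The call of *Ndufa5* was lost with the length trend removed (log2 fold change -0.95). Reads of ribosomal protein genes can also be shared with their pseudogene copies. Proteasome genes, with 0 of 34 called by limma, edgeR or DESeq2 (1 higher and 14 lower at an unadjusted p under 0.05), had a median of -0.36, against -0.14 for genes of like length. Of all 15315 genes, 5585 were at an unadjusted limma p under 0.05, in either direction.

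Glycolysis and hypoxia response genes were mostly higher. Of 29 tested, 3 rose and 0 fell, 18 were higher at an unadjusted p under 0.05, and the median was 0.48, where genes of like length had -0.01. Of all 15315 genes, 3.15% rose, and 5585 were at an unadjusted limma p under 0.05 in either direction. *Slc16a3*, the lactate exporter MCT4, measured 16, 20.7 and 8.53 FPM at 6w+dox and 24.8, 50.3, 53.7 and 33 FPM at 12w+dox (log2 fold change 1.42 ± 0.33 SE, adjusted p = 0.00873). *Egln3*, an oxygen-sensing prolyl hydroxylase gene that hypoxia induces, measured 11.9, 8.77 and 7.78 FPM and 23.9, 27.3, 28 and 20.8 FPM (log2 fold change 1.37 ± 0.26 SE, adjusted p = 0.00332). *Hk2*, which encodes hexokinase 2, the first step of glycolysis, measured 7.39, 10.6 and 4.26 FPM and 15.5, 21.7, 19.9 and 15.1 FPM (log2 fold change 1.29 ± 0.35 SE, adjusted p = 0.0176). The call of *Hk2* was lost without 6w+dox replicate 3 (log2 fold change 0.97) and in females alone (adjusted p = 0.08). The call of *Slc16a3* was lost in females alone (adjusted p = 0.0642). The lowest mouse of all in *Slc16a3* and *Hk2* was 6w+dox replicate 3. Of *Pdk1*, *Kdm3a* and *Bnip3*, hypoxia-induced genes of the list named after their values were seen, the log2 fold changes were 0.99, 0.99 and 0.96, below the minimum for a call.

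Some interferon-stimulated and MHC class I genes fell. Of 27 interferon-stimulated genes, 6 fell (*Bst2*, *Isg15*, *Ifitm3*, *Rtp4*, *Oasl2* and *Ifit1*) and 0 rose, where 4.04% of all genes fell. Their median was -0.43, with summed levels of 553 to 786 FPM and 411 to 476 FPM. *Bst2*, tetherin, which retains viruses at the cell surface, read 30.4, 38.5 and 20.7 FPM and 10.7, 9.5, 10.4 and 8.07 FPM (log2 fold change -1.54 ± 0.20 SE, adjusted p = 0.000323). *Isg15*, a ubiquitin-like modifier, read 13, 18.7 and 6.83 FPM and 3.91, 4.9, 5.17 and 3.1 FPM (log2 fold change -1.40 ± 0.29 SE, adjusted p = 0.00493). With the length trend removed, 4 of the 27 were still called. The call of *Isg15* was lost with the length trend removed (log2 fold change -0.90). The call of *Ifitm3* was lost with the length trend removed (log2 fold change -0.83). Of 11 MHC class I genes, 2 fell and 7 had every 12w+dox mouse below every 6w+dox mouse (median -0.59). Of all genes, 4.04% fell and 12.4% had groups without overlap that were lower. *B2m*, the invariant chain of class I molecules, read 348, 401 and 225 FPM and 113, 59.8, 78.3 and 74.5 FPM (log2 fold change -1.99 ± 0.22 SE, adjusted p = 0.000175), and *H2-D1*, a class I heavy chain whose reads can be split with near-identical genes, 95.7, 129.7 and 62.7 FPM and 30.3, 25.9, 34.2 and 24.9 FPM (log2 fold change -1.67 ± 0.21 SE, adjusted p = 0.000259). Among 7 MHC class II genes 0 were called by limma, edgeR or DESeq2 (1 higher and 0 lower at an unadjusted p under 0.05), and the class II regulator *Ciita* gave 0.96 ± 0.37 (SE, adjusted p = 0.0753), and 1.38 (adjusted p = 0.00879) without 6w+dox replicate 3.

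Of 19 chemokine and inflammatory genes, 8 fell and 0 rose (median -0.41), where 4.04% of all genes fell. Among those that fell were *Il33*, an alarmin of stromal nuclei (6.99, 5.39 and 6.25 FPM and 2.41, 0.933, 2.16 and 2.62 FPM, log2 fold change -1.46 ± 0.28 SE, adjusted p = 0.00337), and the chemokines *Ccl5* (2.15 to 3.7 and 0.466 to 1.15 FPM, -1.41) and *Ccl2* (2.24 to 4.42 and 0.554 to 0.991 FPM, -1.38). With the length trend removed 4 of the 19 were called. The call of *Ccl5* was lost with the length trend removed (log2 fold change -0.87). The call of *Ccl2* was lost in females alone (adjusted p = 0.0789) and with the length trend removed (log2 fold change -0.99). Of 18 immediate-early genes, which stimulation and tissue handling induce within minutes, 3 fell and 0 rose (median -1.02), where 4.04% of all genes fell. The median deviation of this list from the 7-mouse mean was 1.14, 0.13 and 0.09 in the 6w+dox mice. At 12w+dox it was 0.37 and 0.36 in the females, above 6w+dox replicates 2 and 3, and -0.98 and -1.40 in the males. *Arc* read 83, 65.6 and 47.4 FPM and 21.8, 26.7, 28.3 and 30.3 FPM (log2 fold change -1.24 ± 0.22 SE, adjusted p = 0.00217). *Fosb* read 24.5, 19.6 and 10.5 FPM and 10.7, 10.7, 3.2 and 2.74 FPM (log2 fold change -1.50 ± 0.45 SE, adjusted p = 0.0278), with the 12w+dox males below both females. The call of *Fosb* was lost without 12w+dox replicate 3 (adjusted p = 0.0691), 12w+dox replicate 4 (adjusted p = 0.0778), 6w+dox replicate 1 (adjusted p = 0.112) or 6w+dox replicate 2 (adjusted p = 0.102), with sex as a covariate (adjusted p = 0.0854) and in females alone (adjusted p = 0.268). *Egr2* gave -1.15 ± 0.39 (SE, adjusted p = 0.0495). The call of *Egr2* was lost without 12w+dox replicate 2 (adjusted p = 0.0733), 12w+dox replicate 3 (adjusted p = 0.113), 12w+dox replicate 4 (adjusted p = 0.134), 6w+dox replicate 1 (adjusted p = 0.169), 6w+dox replicate 2 (adjusted p = 0.0789) or 6w+dox replicate 3 (adjusted p = 0.0602), in edgeR (adjusted p = 0.129), in DESeq2 (adjusted p = 0.0984), with sex as a covariate (adjusted p = 0.158), in females alone (adjusted p = 0.434) and with the length trend removed (adjusted p = 0.0573).

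Channels and receptors changed in both directions. Of 73 potassium channel genes 8 rose and 4 fell, of 37 calcium, sodium and HCN channel genes 4 rose and 3 fell, and of 65 transmitter-gated and metabotropic receptor genes 8 rose and 5 fell, beside 3.15% and 4.04% of all genes. *Kcnk13*, of a leak potassium channel, read 0.233, 0.445 and 0.497 FPM and 1.81, 2.19, 2.22 and 1.73 FPM (log2 fold change 1.49 ± 0.32 SE, adjusted p = 0.00616). *Kcnk2*, of the leak channel TREK-1, read 51.3, 67.8 and 44.5 FPM and 50.9, 5.3, 8.69 and 9.49 FPM (log2 fold change -2.07 ± 0.54 SE, adjusted p = 0.0161), again with 12w+dox replicate 1 inside the 6w+dox range. The call of *Kcnk2* was lost without 6w+dox replicate 2 (adjusted p = 0.0728), in edgeR (adjusted p = 0.0716), in DESeq2 (adjusted p = 0.0854) and in females alone (adjusted p = 0.134). Without 12w+dox replicate 1 *Kcnk2* gave -2.74 (adjusted p = 0.000168). *Cacna1h*, a low-voltage calcium channel gene, fell, at 2.74, 7.75 and 10.7 FPM and 1.5, 0.379, 0.862 and 1.65 FPM (log2 fold change -2.15 ± 0.47 SE, adjusted p = 0.00648). *Scn4b*, a sodium channel beta subunit, was counted with 0 to 2 reads at 6w+dox and 29 to 63 reads at 12w+dox, and no fold is given. *Htr2c*, a serotonin receptor gene, read 2.21, 0.49 and 0.828 FPM and 7.71, 5.71, 2.9 and 3.32 FPM (log2 fold change 1.73 ± 0.39 SE, adjusted p = 0.00726), and *Gabrd*, a GABA receptor subunit gene, 3.03, 2.45 and 2.32 FPM and 3.45, 13, 18.6 and 12.3 FPM (log2 fold change 1.79 ± 0.41 SE, adjusted p = 0.00817). The call of *Gabrd* was lost in females alone (adjusted p = 0.0928). *Chrnb3*, a nicotinic receptor subunit gene, fell, at 4.95, 4.28 and 10.2 FPM and 1.08, 0.146, 0.246 and 1.01 FPM (log2 fold change -2.66 ± 0.48 SE, adjusted p = 0.00234).

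Of 29 peptide and amine receptor genes 9 fell and 2 rose, *Drd2* and the incretin receptor gene *Gipr* (median -0.67). Of all genes, 4.04% fell and 3.15% rose. *Sstr3*, a somatostatin receptor gene, read 15.2, 19.2 and 27.2 FPM and 3.84, 3.41, 5.36 and 6.0 FPM (log2 fold change -2.02 ± 0.35 SE, adjusted p = 0.00188), and *Agtr1a*, an angiotensin receptor gene, 2.79, 4.5 and 5.01 FPM and 0.454, 0.233, 0.801 and 1.37 FPM (log2 fold change -1.98 ± 0.49 SE, adjusted p = 0.0129). The call of *Agtr1a* was lost without 6w+dox replicate 2 (adjusted p = 0.0553). In the secretory machinery, 2 of 12 prohormone processing and granin genes fell, *Chgb* and *Scg3* (16.7% called, where 7.2% of all genes were). The log2 fold change of *Scg3* was -1.02 ± 0.15 (SE, adjusted p = 0.000754), close to the minimum, and was -0.69 with totals as the scale. The call of *Scg3* was lost without 12w+dox replicate 3 (log2 fold change -0.93), 12w+dox replicate 4 (log2 fold change -0.98), 6w+dox replicate 1 (log2 fold change -0.93) or 6w+dox replicate 2 (log2 fold change just under 1 in size), with sex as a covariate (log2 fold change -0.88), in females alone (log2 fold change -0.83) and with the length trend removed (log2 fold change -0.91). Of 51 vesicle fusion genes 2 rose and 3 fell (9.80% called, where 7.2% of all genes were). *Chgb*, chromogranin B of dense-core granules, read 2697, 3674 and 3788 FPM and 2012, 1449, 1075 and 1275 FPM (log2 fold change -1.24 ± 0.27 SE, adjusted p = 0.00691). The call of *Chgb* was lost in females alone (adjusted p = 0.0758). *Rims3*, an active zone protein gene, read 2.1, 5.43 and 3.73 FPM and 9.21, 10.6, 10.9 and 13.1 FPM (log2 fold change 1.50 ± 0.27 SE, adjusted p = 0.00206), and *Rab3c*, a vesicle GTPase gene, 50.9, 47.5 and 48.6 FPM and 35.3, 15.8, 16 and 24.2 FPM (log2 fold change -1.16 ± 0.22 SE, adjusted p = 0.0028). Of 265 solute carriers 12 rose and 9 fell, a share (7.92%) near that of all genes (7.2%). Among those that rose were *Slc36a4* and *Slc16a8*, a monocarboxylate transporter gene (0.524, 0.445 and 2.9 FPM and 4.54, 11.6, 7.92 and 4.69 FPM, log2 fold change 2.27 ± 0.41 SE, adjusted p = 0.00246). Without 6w+dox replicate 3, its highest mouse at 6 weeks, *Slc16a8* gave 2.87 (adjusted p = 9.79e-05).

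Most signalling lists were called in larger shares than the 7.2% of all genes. The share was 18.4% for growth factors and receptor tyrosine kinases, 25% for Wnt and 26.3% for Hippo genes. It was 10.8% for TGF-beta, BMP and activin genes and 5.56% for Notch genes. Of 49 growth factor and receptor tyrosine kinase genes 4 rose (*Insrr*, *Angpt2*, *Igf2* and *Erbb3*) and 5 fell. Of 44 Wnt pathway genes 4 rose and 7 fell. *Sfrp1*, a secreted Wnt antagonist, read 2.45, 2.14 and 1.45 FPM and 4.01, 11.9, 14.7 and 14.8 FPM (log2 fold change 2.11 ± 0.38 SE, adjusted p = 0.00234), and *Rnf43*, which removes Wnt receptors from the membrane, 22, 14.9 and 23.9 FPM and 45.2, 60.5, 56.6 and 77.3 FPM (log2 fold change 1.54 ± 0.19 SE, adjusted p = 0.000297). *Wnt10a*, a ligand, fell, at 5.65, 10.2 and 7.12 FPM and 2.41, 1.14, 0.554 and 0.81 FPM (log2 fold change -2.31 ± 0.33 SE, adjusted p = 0.000646). Of 37 TGF-beta, BMP and activin genes 4 fell and 0 rose, which were *Nog*, *Bmp4*, *Smad6* and *Bmp2*. The call of *Smad6* was lost without 6w+dox replicate 2 (adjusted p = 0.0659) and in females alone (adjusted p = 0.0784). The call of *Bmp2* was lost without 12w+dox replicate 2 (adjusted p = 0.0613) or 6w+dox replicate 2 (adjusted p = 0.0922), with sex as a covariate (adjusted p = 0.0675) and in females alone (adjusted p = 0.131). The ligand gene *Bmp4* read 3.73, 2.14 and 2.07 FPM and 1.05, 0.408, 0.462 and 0.726 FPM (log2 fold change -1.43 ± 0.28 SE, adjusted p = 0.00402). Of 19 Hippo pathway genes 2 rose, *Vgll3* and *Vgll4*, and 3 fell. *Vgll4*, which competes with YAP for TEAD factors, read 2.15, 6.01 and 5.67 FPM and 11.4, 16.3, 15.2 and 16.4 FPM (log2 fold change 1.68 ± 0.28 SE, adjusted p = 0.00152), and *Yap1*, the pathway effector, 12.9, 15.5 and 14.4 FPM and 8.27, 3.15, 2.86 and 6.34 FPM (log2 fold change -1.50 ± 0.28 SE, adjusted p = 0.00301). The Notch target *Hes1* was the only one of 18 Notch genes called, at 13.9, 12.6 and 8.03 FPM and 5.34, 3.29, 2.59 and 4.8 FPM (log2 fold change -1.42 ± 0.25 SE, adjusted p = 0.00219).

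Of 68 axon guidance genes 3 rose and 8 fell, and of 43 cadherin, claudin and protocadherin genes outside the protocadherin clusters 2 rose and 7 fell. The called shares were 16.2% and 20.9%, where 7.2% of all genes were called. *Slit2*, a repulsive ligand, read 13, 17.3 and 27.4 FPM and 11, 4.14, 2.16 and 6.56 FPM (log2 fold change -1.75 ± 0.38 SE, adjusted p = 0.00658). Its receptor gene *Robo2* read 6.4, 11 and 15.4 FPM and 7.64, 0.466, 0.678 and 1.62 FPM (log2 fold change -2.36 ± 0.58 SE, adjusted p = 0.012), with 12w+dox replicate 1 inside the 6w+dox range, and gave -3.01 (adjusted p = 0.000385) without that mouse. The call of *Robo2* was lost in edgeR (adjusted p = 0.0516), in DESeq2 (adjusted p = 0.053) and in females alone (adjusted p = 0.101). *Sema6b*, a semaphorin gene, rose from 25, 30.2 and 27.1 FPM to 57.6, 91.1, 86.4 and 61.9 FPM (log2 fold change 1.40 ± 0.24 SE, adjusted p = 0.00159). *Pcdh8*, an activity-regulated protocadherin gene, fell from 16.2, 13.6 and 8.86 FPM to 3.11, 3.61, 2.53 and 4.05 FPM (log2 fold change -1.78 ± 0.22 SE, adjusted p = 0.000248). In lipid handling, *Stard4*, a cholesterol carrier gene, was the only one of 24 cholesterol genes called (7.98, 10.1 and 11 FPM and 21.9, 26, 26.2 and 25.4 FPM, log2 fold change 1.33 ± 0.17 SE, adjusted p = 0.000307), and *Lipa*, lysosomal acid lipase, and *Gpnmb* were the 2 of 27 lysosome genes that rose (1.05 for *Lipa*). The called shares of the cholesterol and lysosome lists were 4.17% and 7.41%, where 7.2% of all genes were called. The call of *Lipa* was lost without 12w+dox replicate 1 (log2 fold change 0.97), 6w+dox replicate 1 (log2 fold change 0.99) or 6w+dox replicate 3 (log2 fold change just under 1 in size) and with the length trend removed (log2 fold change just under 1 in size). Of 20 endoplasmic reticulum stress genes 0 were called by limma, edgeR or DESeq2 (0 higher and 9 lower at an unadjusted p under 0.05, median -0.41). Of all 15315 genes, 5585 were at an unadjusted limma p under 0.05, in either direction.

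The lists differed in which mice stood apart. In the somatotroph, lactotroph and thyrotroph list the median deviation of 12w+dox replicate 1 from the 7-mouse mean was 0.43, above 6w+dox replicate 1 (0.30), where the other 12w+dox mice ran from -2.58 to -1.18. In the stem and neural lobe lists it was also the highest of its group, at -0.04 and -0.24, but below every 6w+dox mouse. 6w+dox replicate 3 had the highest median deviation of the 7 mice in the Pit-1 line list, at 2.02, although the summed level was highest in 6w+dox replicate 2. It stood at -0.18 in the respiratory chain and -0.26 in the ribosomal list, where the other 6w+dox mice were at 0.61 to 0.79. In the glycolysis and hypoxia list it was the lowest mouse, at -0.56.

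**Figure D5:**
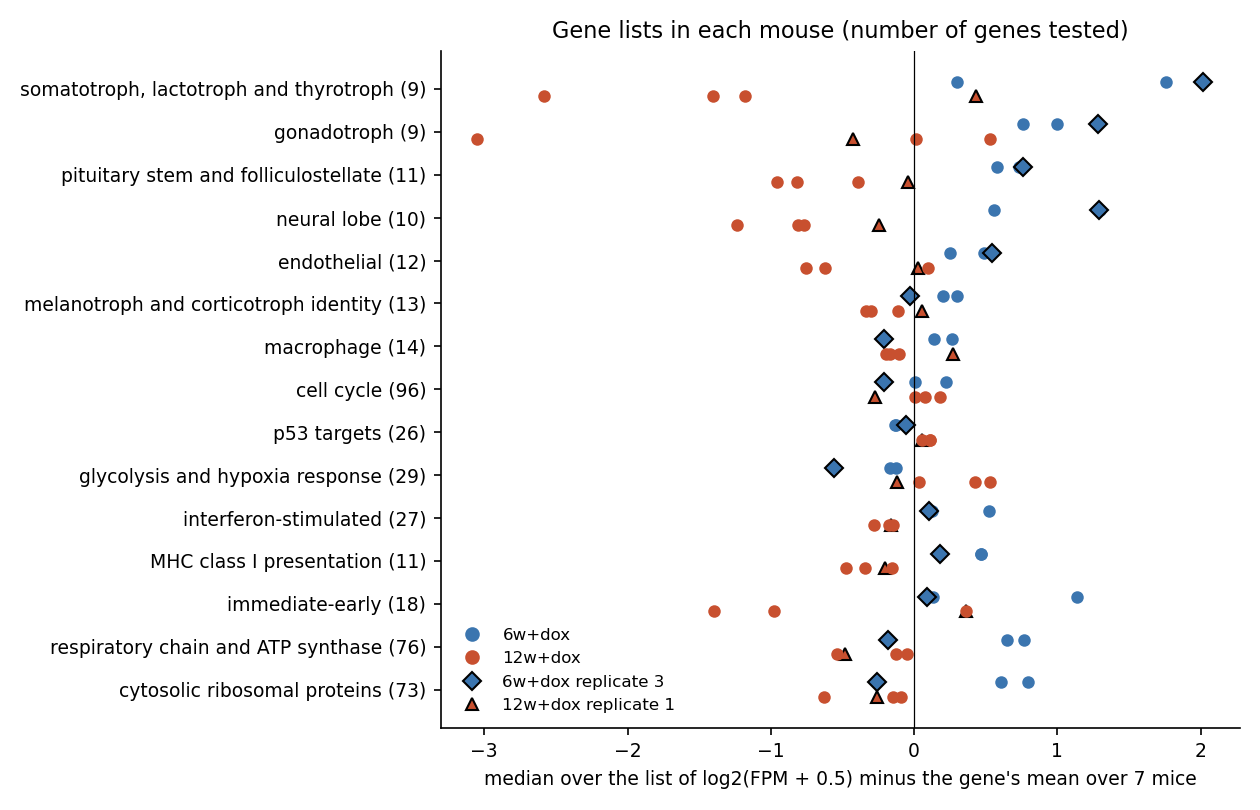
Median over each list of log2(FPM + 0.5) minus the 7-mouse mean of the gene (horizontal axis) for 15 gene lists, with 1 point per mouse (6w+dox blue, 12w+dox red). The triangle (12w+dox replicate 1) sits at 0.43 in the somatotroph, lactotroph and thyrotroph list among the blue points, and the diamond (6w+dox replicate 3) sits at -0.18 and -0.26 in the respiratory chain and ribosomal lists among the red points.

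In 12w-res, whose mice were as long in the experiment as the 12w+dox mice but spent the later weeks off dox, the levels of the genes that changed varied by gene. The values share the spread of the same fit and are given as levels only. *Insrr* (0.708 to 2.01 FPM), *Nr1d2* (93.3 to 109 FPM) and *Gabrd* (1.71 to 3.33 FPM) were in or near the 6w+dox range. *Arg1* (6.52 to 20.7 FPM), *Mme* (89.3 to 115 FPM) and *Hdac11* (165 to 191 FPM) lay in or near the 12w+dox range, and *Fn1* (101 to 266 FPM) and *Igf2* (43.8 to 54.2 FPM) above it. Among the decreases, *Avp* (0.845 to 2.6 FPM), *Peg10* (23.1 to 44.3 FPM) and *Nkx2-1* (0.442 to 1.06 FPM) overlapped the 12w+dox mice. *Gh* (6381 to 24746 FPM) lay between both groups in all but 12w-res replicate 2, which was inside the 12w+dox range, and *Prl* (5659 to 11697 FPM) lay above every 12w+dox mouse.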

How the data were processed

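The authors sequenced poly(A) RNA libraries, aligned the reads with STAR to mm10, assigned them to RefSeq genes, kept genes that had 10 reads or more in over 50% of the samples of a condition, and deposited FPM (DESeq2), a normalized signal per gene. The counting tool and its strand setting are not given in the sources used here. From its steps, every one of 183780 values gave a whole read within 0.1 read, so 100% of reads were recovered, and the edgeR quasi-likelihood test on them called 524 genes higher and 765 lower.

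From the deposited table, 2 lines without a name were left out, which left 15315 genes. limma 3.58.1 (R 4.3.3) with a trended prior was fitted to log2(FPM + 0.5) of all 12 samples of the long-term experiment in 3 groups, and p-values were adjusted over all genes by Benjamini-Hochberg. On simulated data the fit recovered 192 of 200 changed genes with 6 false calls among 15315. Changes were planted only in genes above a minimum mean number of reads. Each was larger than the median called change (1.3 for genes that rose and 1.31 for genes that fell, log2). Smaller changes and genes with few reads are therefore not covered. How far these figures hold for the measured mice was not tested. The 25 samples of the series include a second experiment that was normalized separately and was not used. Gene lists, members and tests were chosen with earlier results of these data known. Genes were named as follows: *Rb1* and the hormone genes, the 12 largest changes and the 6 smallest p in each direction among called genes without overlap and with a mean of at least 1 FPM in 1 group, and up to 4 called genes per list, or the most changed member where none was called. Others were named after their values were seen. Of the named genes, 1 is not reported here.

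Alternatives were edgeR 4.0.16, DESeq2 1.42.0, TMM scaling, scaling by totals, pseudocounts of 0.1 and 1, filters, only the 7 samples compared, sex as a covariate, females alone, the replicate number as a block, no minimum fold change and leaving out each sample. Removal of the trend of each sample on transcript length (lowess, span 0.3) was added after seeing the data. Lengths came from GENCODE vM21 for 14784 genes (96.5%), and 14634 genes (95.6%) matched RefSeq of GRCm38.p6 by symbol.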

Additional observations from a re-analysis of the deposited data

Results flagged for a closer look

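In 11 of 144 named genes, 1 of the 4 12w+dox mice lay further from the others than Dixon's 95% limit, which chance passes in about 1 of 20 groups. In 9 of the 11 the mouse was 12w+dox replicate 1, on the high side. Among genes of anterior lobe and stem cells, it had 4940 FPM of *Prl* where the others had 214 to 332, 53.9 FPM of *Pou1f1* where they had 1.28 to 7.15, 485 FPM of *Dlk1* where they had 23 to 56.2, and 20.2 FPM of *Cyp2f2*, a stem cell marker, where they had 9.86 to 10.6. Among signalling and channel genes, it had 50.9 FPM of *Kcnk2* against 5.30 to 9.49, 7.64 FPM of *Robo2* against 0.466 to 1.62, 7.01 FPM of the ephrin receptor gene *Epha7* against 0.146 to 0.955, 4.99 FPM of *Vegfc* against 1.22 to 1.76, and 40.4 FPM of *Ifitm3*, an antiviral membrane protein gene, against 26.2 to 28.4. The same mouse shared the 6w+dox side of *Eno1b* and *Rab6b*.

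The other 2 such mice were replicate 2, with 15.2 FPM of *Itgb8* against 7.64 to 8.30, and replicate 4, with 105 FPM of *Manf*, which encodes a secreted endoplasmic reticulum stress protein, against 152 to 157.5.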

How the results depend on the processing

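All 1102 called genes kept their direction under every alternative that gave them a value. Of the 135 named genes that were called, 95 were called in females alone, 104 without 6w+dox replicate 2, 117 with the length trend removed, 118 with totals as the scale, 123 in edgeR and 127 with only the 7 mice. With only the 7 mice the limma adjusted p was 0.0788 for *Pou1f1*, 0.059 for *Ccne2*, 0.054 for *Kcnk2* and 0.0757 for *Fosb*. It was 0.0501 for *Bmp2*, 0.128 for *Egr2* and 0.077 for *Epha7*. With totals as the scale, calls were lost for *Emcn*, *Tie1*, *Tek*, *Myh11*, *Cd3g*, *Cdkn1c*, *Chgb*, *Scg3*, *Cox6c*, *Arc*, *Egr2*, *Rab3c* and *Smad6*. The counts of genes higher and lower were 1058 and 317 when samples were scaled by totals of reads (77.0% higher of those called, where the size-factor scale gave 43.8%), 1600 and 1833 with no minimum fold change, and 322 and 367 in females alone. Leaving out 1 mouse gave 374 to 805 higher and 431 to 874 lower, with the most when 6w+dox replicate 3 was left out. With the replicate number as a block, 0 genes were called higher and 0 lower (3081 at an unadjusted p under 0.05). Same-numbered mice did not deviate together (r of -0.17, 0.09 and -0.09 over genes), so the numbers do not pair the mice, and the block also drops 12w+dox replicate 4.

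*Rb1*, not called in any setting, had log2 fold changes of -0.011 in females alone, -0.0072 under the block and -0.024 with the length trend removed, and -0.17 to 0.45 when 1 mouse was left out. Of 492 list medians under alternatives, 17 moved by more than the spread between mice. The 6w+dox group was all female and 12w+dox was not, so that with all 7 mice sex and time are told apart only by the 2 females of 12w+dox. Genes with a few reads, such as *Cckbr*, *Scn4b* and *Oxt*, are limited by counting.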

Other observations

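The genes of this section were gathered after their values had been seen, so their counts describe these mice and carry no test of the group. Of 18 circadian clock genes, 7 rose (*Per2*, *Ciart*, *Per3*, *Dbp*, *Nr1d2*, *Tef* and *Hlf*) and 3 fell (*Npas2*, *Nfil3* and *Arntl*). Of all genes, 3.15% rose and 4.04% fell. *Arntl*, which encodes BMAL1 of the activating arm, read 32.3, 24.8 and 41 FPM at 6w+dox and 12.9, 13, 12.6 and 13.3 FPM at 12w+dox (log2 fold change -1.27, limma adjusted p = 0.000248). Its relative *Npas2* read 16, 11.6 and 12.3 FPM and 2.90, 3.18, 2.53 and 3.57 FPM (log2 fold change -1.95, limma adjusted p = 0.000175). *Per2*, of the repressing arm, read 6.64, 11.5 and 19.5 FPM and 32.7, 24.3, 47.3 and 66.5 FPM (log2 fold change 1.75, limma adjusted p = 0.00303). *Clock*, the partner of BMAL1 (log2 fold change -0.11, limma adjusted p = 0.594), and the repressors *Per1*, *Nr1d1*, *Cry1* and *Cry2* (0.61, 0.48, 0.27 and 0.91) were not called. The time of day of collection is not given in the sources used here.

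Of 22 genes of lipid-laden macrophages and phagocytes, 11 rose and 0 fell, where 3.15% of all genes rose. Members that were not called included *Trem2*, *Lgals3*, *Cd68*, *Fabp5* and *Spp1* (log2 fold changes 0.13, 0.05, 0.16, -0.18 and -0.96), and *Apoe* and *Cd63* (-0.69 and -0.89), in which every 12w+dox mouse lay below every 6w+dox mouse. Of 8 genes of the infundibulum, the stalk region that signals to the developing pituitary, 6 fell and 0 rose, where 4.04% of all genes fell. Of 55 clustered protocadherins, 23 rose and 0 fell (median log2 fold change 0.77), beside the 3.15% of all genes that rose. These genes share exons and have long transcripts, so that reads of single members are uncertain.

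*Rab6b* and *Eno1b* were the only 2 genes in which the 3 6w+dox mice and 12w+dox replicate 1 were parted from all 8 other mice of the experiment by 5-fold or more. In *Rab6b* the 4 mice had 1.03 to 2.97 FPM and the others 34.4 to 71.2 FPM, and in *Eno1b* they had 15.8 to 27.3 FPM and the others 0.137 to 0.431 FPM. Reads of *Eno1b* can be split with its near-identical relative *Eno1*.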
